A study of Rattus norvegicus with 6 samples.

Results

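Ndfip1 and Ndfip2 are a pair of closely related genes whose proteins bring ubiquitin ligases of the Nedd4 family to their targets. They were followed here in rat carotid arteries with and without balloon injury, by the 1 probe of each gene that the arrays carry under a RefSeq accession (A_44_P166216, NM_001013059, for Ndfip1 and A_44_P1047638, NM_001108390, for Ndfip2). These are 2 of 38321 probes on the array, and each was printed 10 times, so that 20 spots per array and 120 spots in all bear on the pair. Total RNA came from common carotid arteries of adult male Sprague-Dawley rats of 250 to 300 g, none of which is labelled as carrying a genetic change. In the injured group (n = 3) a 2F Fogarty catheter had damaged the inner lining of the right common carotid artery under phenobarbital sodium (50 mg/kg), and the artery was taken after 14 days. The control group (n = 3) goes by sham, uninjured or normal depending on the label, so that the operation these rats had is not settled. Each sample was labelled with Cy3 and measured on 1 array. The labels do not say that the samples came from different animals, so p-values measure only the spread between these samples, which may be technical.

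Both proteins sit in the membranes of the Golgi apparatus and endosomes and carry short PY motifs, which bind the WW domains of Nedd4, Itch and related ligases. The ligases are otherwise held in a closed, weakly active state, and binding of an Ndfip protein opens them and places them at membranes, where they tag channels, transporters and signalling proteins for breakdown. Ndfip1 is best known for restraining T cells through Itch and its target JunB, and for limiting metal uptake through the transporter DMT1. Ndfip2 has an overlapping set of partners. In the injured carotid artery, smooth muscle cells leave the contractile state, divide and build a new inner layer, and the wall is also entered by leukocytes.

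The stretches just upstream of the start of each gene are shown because the genes are followed as a pair. Their signals were high and low on the same arrays, a pattern that other named genes shared. They are the 250 bases before the RefSeq start on GRCr8, written 5′ to 3′, with matches to the GC box core GGGCGG (either strand) in capitals.
Ndfip1, chr18:30516775-30517024, + strand: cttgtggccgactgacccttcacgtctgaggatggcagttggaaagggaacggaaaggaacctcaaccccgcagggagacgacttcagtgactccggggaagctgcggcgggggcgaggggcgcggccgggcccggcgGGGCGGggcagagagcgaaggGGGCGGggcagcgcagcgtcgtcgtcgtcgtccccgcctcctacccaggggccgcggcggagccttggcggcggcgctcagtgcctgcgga
Ndfip2, chr15:88446682-88446931, + strand: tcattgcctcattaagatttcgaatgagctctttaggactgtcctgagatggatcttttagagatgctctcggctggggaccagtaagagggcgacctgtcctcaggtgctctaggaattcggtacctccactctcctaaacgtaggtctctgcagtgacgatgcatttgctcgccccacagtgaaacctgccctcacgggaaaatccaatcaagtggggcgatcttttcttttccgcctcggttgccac
The Ndfip1 stretch has a G and C content of 72.8% and 31 CpG dinucleotides, against 51.6% and 11 for Ndfip2 and medians of 51.2% and 5 over 33465 rat gene starts in the same table. GGGCGG was found 2 times upstream of Ndfip1 and 0 times upstream of Ndfip2, and 30.5% of all such stretches hold it. CCAAT was found 0 times for Ndfip1 and 1 time for Ndfip2, against 34% of all stretches. Neither stretch held TATAAA (12.9% of all), CACGTG (5.59%) or a match to the CArG box (1.5%), the element bound by serum response factor. All motifs were searched on both strands. These matches describe letters in a window and were not tied to the array values.

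The 6 arrays did not order by group over all probes. Injured 1 correlated with sham 1 at r = 0.975 and with injured 2 at 0.60 across probes, which are not independent replicates, and sham 3 correlated with injured 2 at 0.893. Sham 3 was also the dimmest array, with its 75th percentile at 89.5 intensity units, where the others had 214 to 284. The labels name no slide, so slides were inferred from the scan identifier in the array headers. By it, sham 1 and all 3 injured arrays shared a slide, and sham 2 and sham 3 were each on another. Both fold changes and the paralog change are given with and without sham 3 and injured 1, and the other values describe all 6 arrays.

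Both probes were measured well on every array. All 120 spots were well above background and none was saturated. For Ndfip1 the median pixel signal of a spot was 199 times its local background on sham 1, the highest array, and 5.56 times on injured 2, the lowest. For Ndfip2 these ratios ran from 65.0 on injured 1 to 7.96 on injured 2. The 10 spots of a probe agreed closely, with a coefficient of variation of 3.17% to 9.53% for Ndfip1 and 5.74% to 12.0% for Ndfip2. The scanner software flagged 3 Ndfip2 spots as outliers, 1 each on sham 3, injured 2 and injured 3, and these were left out of the means.

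Before any scaling, the Ndfip1 spots had medians of 3192, 3058 and 208 intensity units on sham arrays 1, 2 and 3. On injured arrays 1, 2 and 3 they had medians of 2598, 74.5 and 102. The Ndfip1 signal was thus high on sham 1, sham 2 and injured 1 and low on the other 3 arrays, and the means over the spots of the highest and the lowest array lay 43.3-fold apart. The spots of injured 1 (2536 to 2830) all lay below those of sham 2 (2869 to 3279), and those of injured 2 (59.2 to 82.8) and injured 3 (88.3 to 109) all lay below those of sham 3 (183 to 252).

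The Ndfip2 spots had medians of 1047, 1034 and 164 intensity units on sham arrays 1, 2 and 3. On injured arrays 1, 2 and 3 they had medians of 1474, 122 and 136. The same 3 arrays were high and the same 3 low as for Ndfip1, over a narrower range of 11.8-fold. The order within the high arrays was different, since the spots of injured 1 (1268 to 1611) all lay above those of sham 1 (970 to 1195). With the flagged spots included, the Ndfip2 spots of sham 3 (136 to 196) overlapped those of injured 2 (93.8 to 142) and injured 3 (125 to 162). Without the flagged spots they did not overlap. The lowest spot of sham 3 was then 154, above the highest of injured 2 (142) and of injured 3 (150).

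The spots sit at the same 10 places on each array, which allows them to be set against each other place by place. Injured 1 and sham 1, on 1 slide, differed in opposite directions for the genes of the pair. At 10 of 10 places Ndfip1 was dimmer on injured 1 than on sham 1, and at 10 of 10 places Ndfip2 was brighter. Sham 2 and sham 1 differed less regularly, with Ndfip1 dimmer on sham 2 at 9 of 10 places and Ndfip2 at 5 of 10. Spots of 1 array share its RNA, so these counts describe single samples and do not stand for the groups.

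**Figure D1:**
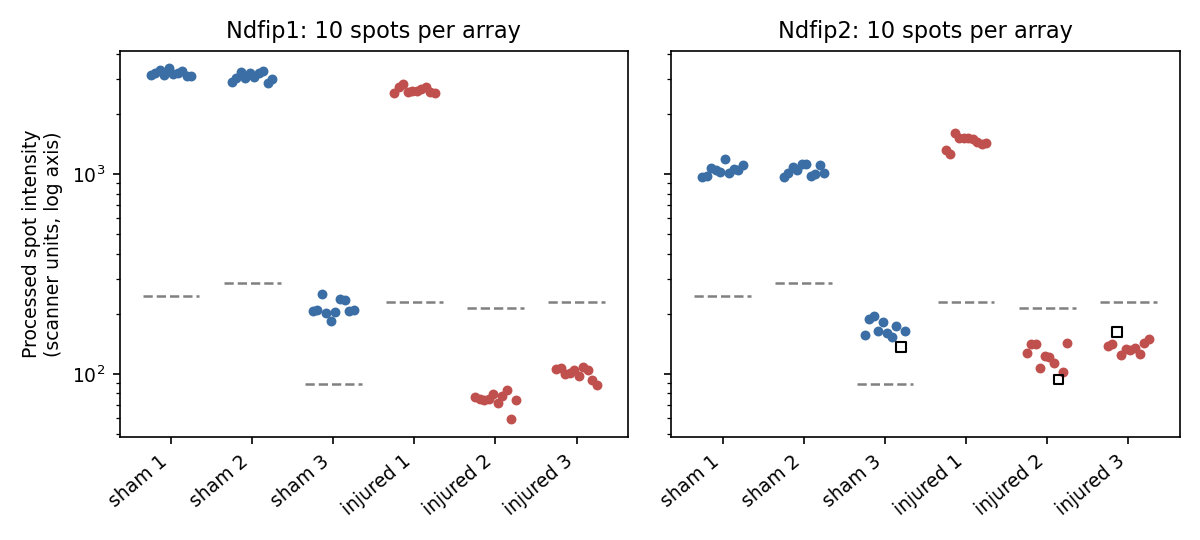
Processed intensity (scanner units, log axis) of the 10 spots of each probe on each array, for sham (blue) and injured (red) arteries. Open squares are the 3 spots flagged as outliers and dashed lines are the 75th percentile of each array over non-control probes. Both genes are high on sham 1, sham 2 and injured 1, where all spots lie above the dashed line, and low on sham 3, injured 2 and injured 3, where the sham 3 spots still lie above the line of that array.

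To compare arrays, log2 intensities were taken relative to the 75th percentile of each array over its non-control probes, so that 0 stands for a signal that 75% of the probes do not exceed. On this scale Ndfip1 measured 3.71, 3.44 and 1.25 on sham arrays 1, 2 and 3. On injured arrays 1, 2 and 3 it measured 3.53, -1.53 and -1.19. The lowest 2 values were injured arteries, but injured 1 lay between sham 1 and sham 2, so the groups overlapped. Relative to sham 2, injured 1 was thus lower before scaling and 0.09 log2 units higher after it. Sham arteries had a mean level of 2.80 ± 1.35 (SD, n = 3), and injured arteries one of 0.27 ± 2.83 (SD, n = 3). The log2 fold change was -2.53 ± 1.51 (SE), a mean 5.78-fold lower in injured arteries, and it missed the threshold (limma adjusted p = 0.599, unadjusted p = 0.143). Its 95% interval ran from -6.19 to 1.13, that is from 72.9-fold lower to 2.19-fold higher. An exact two-sided permutation test of the 6 values gave p = 0.3, where the smallest p that 3 against 3 arrays allow is 0.1.

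Ndfip2 measured 2.10, 1.88 and 0.93 on sham arrays 1, 2 and 3 on the same scale. On injured arrays 1, 2 and 3 it measured 2.67, -0.79 and -0.76. Injured 1 had the highest Ndfip2 value of all 6 arrays, and injured 2 and injured 3 the lowest, so again the groups overlapped. Sham arteries had a mean level of 1.64 ± 0.62 (SD, n = 3), and injured arteries one of 0.37 ± 1.99 (SD, n = 3). The log2 fold change was -1.27 ± 1.05 (SE), a mean 2.41-fold lower in injured arteries, with a 95% interval from -3.81 to 1.28. It too missed the threshold (limma adjusted p = 0.599, unadjusted p = 0.271), and the exact two-sided permutation test gave p = 0.4. In whole arteries, fewer cells of a type and less RNA per cell cannot be told apart.

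**Figure D2:**
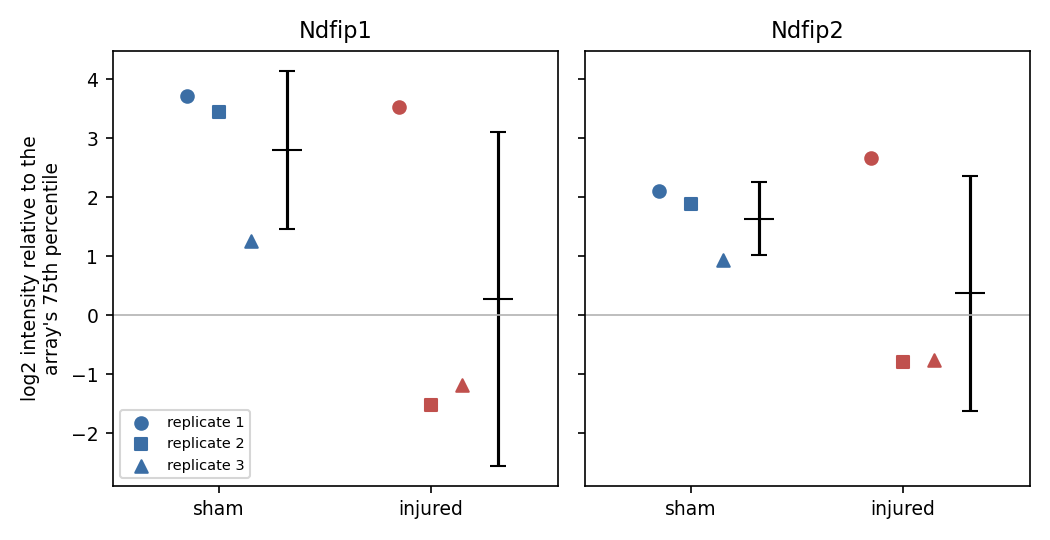
log2 intensity of each probe relative to the 75th percentile of its array, by group. Points are single arrays (marker shape gives the replicate number, which the labels do not say pairs the groups), and bars are the group mean ± SD (n = 3). For Ndfip1 injured 1 lies between sham 1 and sham 2, for Ndfip2 it lies above both, and for both genes injured 2 and injured 3 lie below every sham array.

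Neither member was called, against 0% of the 24718 probes tested (0 at a limma adjusted p under 0.05, and 1094 at an unadjusted p under 0.05). Both members had a negative fold change, as did 47.7% of the tested probes. Among the 29 genes with a name and a tested probe the share was larger, since 24 had a negative fold change, 22 of them outside the pair. For neither member did all injured values lie below all sham values, which was so for 5.31% of 24473 probes measured on every array. The fold change of Ndfip1 lay far out, with 2.15% of tested probes having a lower one, but 20.7% of probes had an unadjusted p as low. For Ndfip2 17.2% of probes had a lower fold change. The pooled SD within groups was 2.22 for Ndfip1 and 1.47 for Ndfip2, against a median of 1.01 over tested probes. The spots of 1 array, by contrast, had a pooled SD of 0.094 for Ndfip1 and 0.114 for Ndfip2, so that arrays of a group differed 23.5 and 12.9 times as much as spots of an array.

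Ndfip1 spanned 5.24 log2 units from its lowest to its highest array, the rank 2 span of the 30 tested probes that name a protein-coding gene, after a probe of Ldha with 5.77 units (its other probe spanned 2.02). It had the lowest fold change of the 30. Ndfip2 spanned 3.46 units, the rank 10 span of the 30, and had the rank 13 fold change from below. Over all tested probes the median span was 2.56 units, and 90.2% of probes spanned no more than Ndfip1 and 68.2% no more than Ndfip2. Against the other probes of the same array, Ndfip1 stood at the percentile 92.6, 91.8 and 83.0 on sham arrays 1, 2 and 3 and at 91.9, 61.6 and 65.2 on injured arrays 1, 2 and 3. Ndfip2 stood at 86.1, 85.3 and 81.2 on the sham arrays and at 88.8, 68.7 and 69.2 on the injured ones. By these ranks sham 3 lay closer to the other sham arrays than to injured 2 and injured 3 for both genes. The ranks need no scaling between arrays, but they move with the share of probes that give signal. That share, well above background, was 51.5% on sham 3, 70.1% on injured 2 and 67.5% on injured 3.

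**Figure D3:**
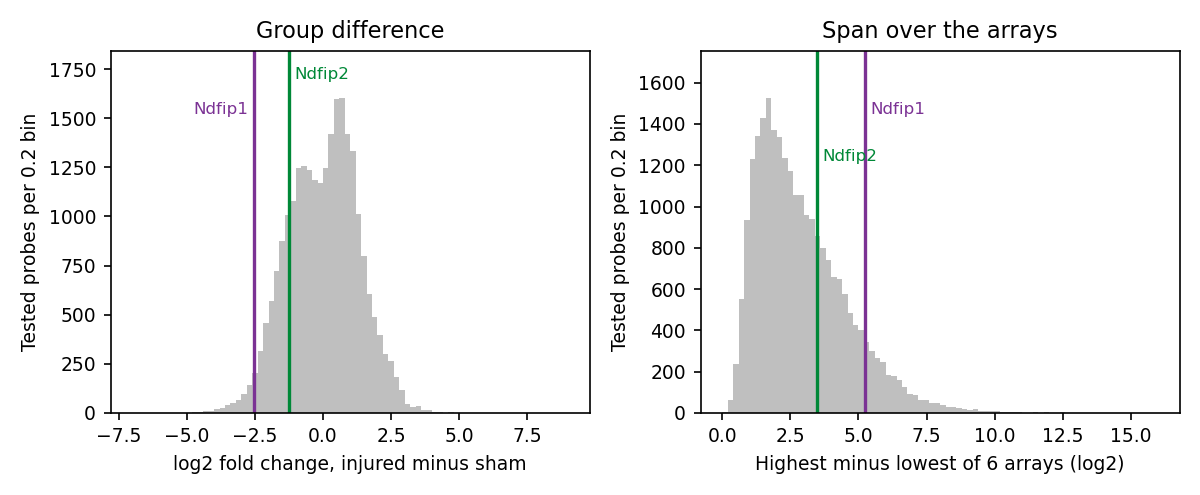
Number of tested probes per bin of 0.2 log2 units, by log2 fold change (left) and by the span from the lowest to the highest of the 6 arrays (right). Vertical lines mark Ndfip1 (-2.53 and 5.24) and Ndfip2 (-1.27 and 3.46), both on the lower side of the fold changes and on the wider side of the spans.

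The place of sham 3 depends on the scaling. With no scaling Ndfip2 was 0.47 log2 units higher on sham 3 than on injured 2 and 0.33 higher than on injured 3, against 1.72 and 1.70 after scaling to the 75th percentile. For Ndfip1 the unscaled differences were 1.53 and 1.08, against 2.78 and 2.44 after scaling. In each of 6 scalings or background corrections sham 3 stayed above injured 2 and injured 3 for both genes, and in each the groups overlapped through injured 1. The span of Ndfip1 was 4.43 to 5.85 log2 units over these settings and that of Ndfip2 2.91 to 3.99.

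The paralogs were then compared by the log2 difference of their probes within an array, in which the scaling cancels. Different probes do not share a response to their targets, so only its change between arrays is read and not its level. Ndfip1 minus Ndfip2 was 1.61, 1.56 and 0.32 on sham arrays 1, 2 and 3. On injured arrays 1, 2 and 3 it was 0.86, -0.74 and -0.43. The difference was lowest on injured 2 and injured 3, while injured 1 lay between sham 2 and sham 3, so the groups overlapped. Its mean was 1.16 ± 0.73 (SD, n = 3) over the sham arrays and -0.10 ± 0.85 (SD, n = 3) over the injured ones. Its change was -1.26 ± 0.65 (SE), which equals the gap between the fold changes of the genes. An exact two-sided permutation test of this change gave p = 0.2. The smallest p possible with n = 3 per group is 0.1. That lies above the threshold, so this test could not call a change of any size.

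Within the slide that sham 1 shares with the injured arrays, all 3 injured arrays had a smaller difference than sham 1, by 0.75, 2.34 and 2.04 log2 units. Injured 1 differed from sham 1 by -0.18 for Ndfip1 and 0.57 for Ndfip2 on the scaled values, and by -0.28 and 0.47 with no scaling. Sham 3 differed from sham 1 by -2.46 for Ndfip1 and -1.17 for Ndfip2. On sham 3, injured 2 and injured 3, whose unscaled signals were low, Ndfip1 was thus further below sham 1 than Ndfip2 was, whether the array was from a sham or an injured artery.

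**Figure D4:**
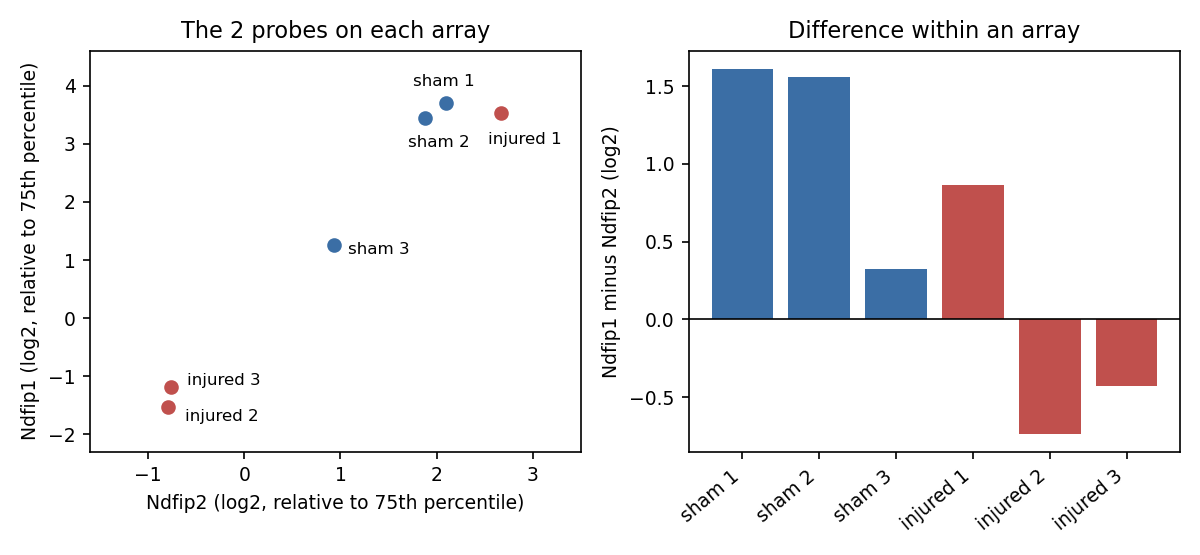
Left, Ndfip1 against Ndfip2 on each array (log2 relative to the 75th percentile of the array), for sham (blue) and injured (red) arteries. Right, the difference of the 2 probes within each array, which is 1.61 and 1.56 on sham 1 and sham 2, 0.86 on injured 1, 0.32 on sham 3 and negative on injured 2 and injured 3.

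The size of both fold changes and of the paralog change moved with the arrays that entered. Without injured 1 the log2 fold change was -4.16 for Ndfip1 (limma adjusted p = 0.0533) and -2.42 for Ndfip2 (limma adjusted p = 0.0537), and the paralog change was -1.74. Without sham 3 they were -3.30, -1.62 and -1.68. Leaving out injured 2 gave -1.63, -0.69 and -0.95, and leaving out injured 3 gave -1.80, -0.70 and -1.10. Without both sham 3 and injured 1, arrays left out after their values were seen, Ndfip1 had -4.93 ± 0.23 (SE; limma adjusted p = 0.000892) and Ndfip2 -2.77 ± 0.19 (SE; limma adjusted p = 0.00113). The paralog change was then -2.17 (exact two-sided permutation p = 0.333, the smallest that 2 against 2 arrays allow). That fit called 18186 of the tested probes, so a call there sets neither gene apart. Array weights gave sham 3 a weight of 0.138 and injured 1 one of 0.0585, against 1.47 to 5.30 for the others. With them the fold changes were -4.76 and -2.66 (limma adjusted p = 8.11e-05 and 9.36e-05), with 20227 probes called. The weights were estimated from the same values, by how far arrays lay from their group. Their p-values thus carry the same limit as those without sham 3 and injured 1. Set against sham 1 alone, the injured arrays of its slide gave -3.44 ± 2.45 for Ndfip1 and -1.73 ± 1.81 for Ndfip2 (SE), with no spread on the sham side.

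**Figure D5:**
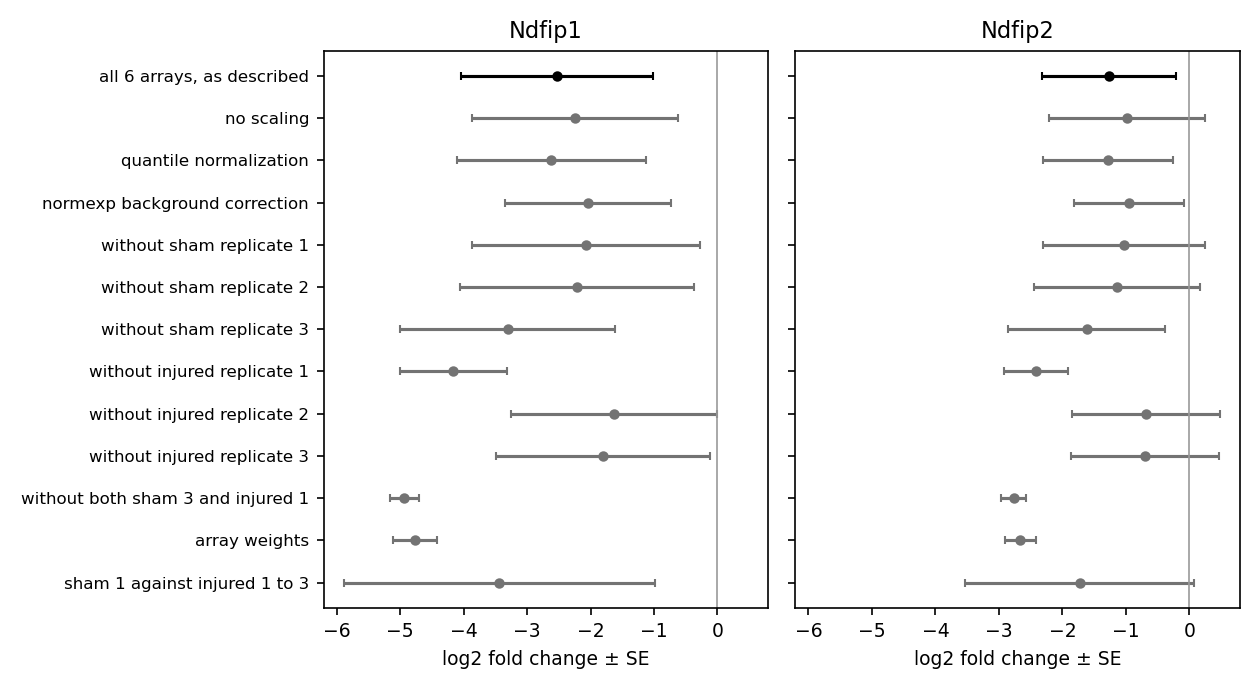
log2 fold change (injured minus sham) ± SE of each gene under the analysis as described (black) and under other settings (grey). All values are negative, and the errors are narrowest (SE 0.19 to 0.35) where sham 3 and injured 1 are both left out or weighed down.

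The partners of the pair could not be followed. Of 58 genes listed for the pathway (Nedd4-family ligases, other adaptors of these ligases, their known substrates and general ubiquitin enzymes), 1 had a probe with a gene name, and 0 of 9 ligases, 0 of 13 other adaptors and 0 of 19 substrates did. That gene was Trim2, a ubiquitin ligase of another family, which was not called either. It measured 1.41, 1.23 and 1.30 on sham arrays and 0.70, -1.10 and -1.12 on injured arrays 1, 2 and 3. Its injured values all lay below its sham values, unlike those of Ndfip1 and Ndfip2, and sham 3 was not low. Of 37 marker genes of 8 cell types of the artery wall and its surroundings, 0 had a named probe, so neither the tissue label nor the cell makeup could be checked, and their part in the levels of the pair was not tested.

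Among the other 28 named and tested genes, the patterns most like Ndfip1 over the 6 arrays were those of Magoh (Pearson r = 0.999), Hsp90ab1 (r = 0.996) and Pdk3 (r = 0.99). Magoh encodes a subunit of the exon junction complex, Hsp90ab1 a cytosolic chaperone and Pdk3 a kinase of pyruvate dehydrogenase. The patterns most like Ndfip2 were those of Pld1 (r = 0.99), a phospholipase, Magoh (r = 0.989) and Eif4b (r = 0.987), a translation initiation factor. The pair correlated with each other at r = 0.984. That put Ndfip2 at rank 8 of 28 for likeness to Ndfip1, and Ndfip1 at rank 6 for Ndfip2, so the shared pattern was not particular to the paralogs. Each of these genes was higher on sham 1, sham 2 and injured 1 than on the other 3 arrays, which the first principal component of all tested probes (84.7% of the variance) also separates by sign, so the correlations describe that order over 6 arrays and carry no p. Sham 3 lay between. On the scaled values it was nearer to sham 2 than to injured 2 or injured 3 for Ndfip1, Ndfip2, Magoh and Pld1. With no scaling it was nearer to injured 2 and injured 3 for both members of the pair. The patterns of these genes differed in size. Magoh was at 3.28, 3.16 and 2.46 on the sham arrays and at 3.29, 1.43 and 1.57 on the injured ones, a much smaller range than that of Ndfip1. Pld1 was at 1.66, 1.48 and 0.60 on the sham arrays and at 1.97, -1.64 and -1.94 on the injured ones, and like Ndfip2 it was highest on injured 1. Of the 10 genes printed 30 times per array, many of them common references, 3 (Actb, Hsp90ab1 and Rpl13a) were lower on sham 3, injured 2 and injured 3 than on every other array, as the pair was. Another 3 (Hprt1, Rplp1 and Gusb) were highest on sham 3, and the other 4 had neither pattern.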

How the data were processed

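Spot intensity was deposited in the form written by Agilent Feature Extraction 11.0.1.1 (version from the submitters' processing notes). The processed intensity is background-subtracted and detrended within an array and not scaled between arrays, and low values have a positive surrogate, per the file headers. Other flag columns (0 or 1 per spot) come from the same deposited files. In a separate deposited table the authors give normalized log2 values, and how they were normalized is not given in the sources used here. It does not list the probes of the pair and served only for the count of called probes.

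Spots of a probe were averaged as log2 values without outlier spots, and the 75th percentile over non-control probes was subtracted from each array. Probes with over 50% of their spots well above background on at least 3 of 6 arrays were tested, 24718 of 38321. The groups were compared with limma 3.58.1 (lmFit, then eBayes; R 4.3.3), and Benjamini-Hochberg adjustment ran across every tested probe, with a threshold of 0.05. The number of arrays limits the precision. Accessions were matched without versions to RefSeq (GRCr8), which named 39 of 62 accession probes. The array design was annotated on rn4, and where in its transcript each probe lies is not given in the sources used here. Promoter stretches are from RefSeq's GRCr8 table, which had an entry for both genes. The fit was tested on simulated data, where recovery of set changes was required only at a spread well below that of these data. How often a change would be found at their own spread is not given here.

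The members, lists and tests were chosen with earlier results of these data known. Besides the pair and its lists, the 3 named genes with the highest Pearson correlation to each member are named. The reference genes were grouped after their values were seen. Alternatives covered scaling, background correction, filters, spot averaging, blocks, array weights and each array left out. Array weights were estimated gene by gene, since the default estimate did not converge.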

Additional observations from a re-analysis of the deposited data

How the results depend on the processing

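The log2 fold changes of Ndfip1 and Ndfip2 and the paralog change stayed negative under every alternative run. Other scalings and background correction gave -2.80 to -2.04 for Ndfip1, -1.54 to -0.96 for Ndfip2 and -1.33 to -1.08 for the paralog change. Leaving out 1 array gave -4.16 to -1.63, -2.42 to -0.69 and -1.74 to -0.95, with 0 to 0 probes called. Only 2 settings brought both genes past the threshold, those that left out or weighed down sham 3 and injured 1. Why these arrays lay apart from their groups was not tested. With array weights the log2 fold changes were -4.76 and -2.66, with 20227 probes called. Without both sham 3 and injured 1, a setting added after seeing the data, they were -4.93 and -2.77, with 18186 called. The comparison within the shared slide was also added then. Unadjusted, 1094 probes had a p under 0.05, in place of the 0 after adjustment. The labels do not say that the replicate numbers pair the groups. Deviations of same-numbered arrays from their group means correlated at 0.828, -0.573 and 0.822, and sham 3 correlated better with injured 2 (0.843) than with its own number. Deviations cancel within a group of 3, so these values can neither show nor exclude a pairing. With the replicate block 3 probes were called, and the fold changes were -2.53 for Ndfip1 (limma adjusted p = 0.205) and -1.27 for Ndfip2 (limma adjusted p = 0.34). The deposited log2 values, which lack both probes, gave 0 calls. The scan-day block equals leaving out sham 2. The fixed slide block rests on sham 1 alone on the sham side, so its result says nothing about stability. Signal over background was lowest for Ndfip1 on injured 2 (5.56 times).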
